A study of Fragaria vesca with 12 samples.

Results

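The comparison described here set strawberries stored cold after a CO2 pretreatment (CCS) against strawberries taken right after harvest (AH). It comprised the 3 CCS libraries and the 3 AH libraries of the 12 libraries in the series, chosen by the condition in their labels. All were ripe *Fragaria vesca* 'Mara des Bois' fruit, and levels are given in RPKM, a read count corrected for gene length and library size. CCS fruit had spent 7 days at 1 °C, the first 2 of them in a gas mixture of 18% CO2, 18% O2 and 64% N2 and the next 5 in air, and then 1 day at 20 °C. AH fruit was taken 2 h after harvest with no storage. The comparison therefore spans harvest to the end of storage, and it joins the gas, the cold, the return to 20 °C and the passage of time, which cannot be told apart within it. The series also held air-cold stored fruit (ACS), held in air through the same 7 days at 1 °C and the same day at 20 °C, and non-cold stored fruit (NCS), kept for 2 days at 20 °C. The CCS fruit came from a single container and the AH fruit from a single harvest. Each library was made from powder of a mixture stated in the labels to hold at least 50 strawberries, and transcripts of achenes, the seed-bearing parts, were present. The p-values therefore measure the spread between such mixtures.

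Strawberry is a non-climacteric fruit, whose fleshy part is an enlarged receptacle that carries the achenes on its surface. Its softening goes with the disassembly of the cell wall, in which pectin methylesterases, pectate lyases, polygalacturonases, expansins and xyloglucan endotransglucosylase/hydrolases (XTH) act on pectin and on the network of xyloglucan and cellulose. Short treatments with high CO2 are used after harvest to restrain decay and softening. Plants answer to cold, altered gas and the return to warmth through calcium sensors, receptor kinases and transcription factors of the WRKY, NAC, MYB and ethylene response factor (ERF) families, and through hormones such as ethylene, jasmonate and abscisic acid.

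The 3 CCS libraries held 74.1 to 87.3 M reads and the 3 AH libraries 83.7 to 119.9 M reads, as recovered from the steps of the RPKM values. Among log2 values of the genes tested, the correlation between libraries was 0.991 to 0.995 within CCS, 0.977 to 0.992 within AH and 0.916 to 0.931 between the groups. Ripe fruit markers were present in both, with summed levels of 1931 to 2081 RPKM in CCS and 2616 to 3066 RPKM in AH fruit over the 37 genes described as expansins, most of it from FvH4_7g25860. The 54 genes of seed storage and oil body proteins, which mark the achenes, summed to 7139, 6326 and 2650.4 RPKM in CCS replicates 1, 2 and 3, against 4828, 5461 and 9257 RPKM in AH replicates 1, 2 and 3. CCS replicate 3 thus stood below the other 5 libraries in achene transcripts. FvH4_6g51310, an oleosin of seed oil bodies, was at 685, 601 and 199 RPKM in the CCS libraries, against 618, 562 and 837 RPKM in the AH libraries. All 9 genes described as oleosins were tested, and with limma their adjusted p lay between 0.36 and 0.96. The 90 photosystem and chlorophyll genes, markers of green tissue, summed to 112 to 125 RPKM in CCS and 178 to 212 RPKM in AH fruit. In such mixtures, fewer cells of a type and less RNA per cell cannot be told apart, and the part of the achenes and of green tissue in the results was not tested. FvH4_7g22410, the actin gene that the study used as its qPCR reference, had 14.2, 14.4 and 14.3 RPKM in the CCS libraries, against 27.9, 25.5 and 23.96 RPKM in the AH libraries (log2 fold change -0.84 ± 0.08 SE, limma adjusted p = 3.7e-04). It was lower in all CCS libraries, by less than the fold limit set for calls.

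Of 34008 genes, 16622 reached 0.5 RPKM in at least 3 of the 6 libraries and were tested with limma on log2(RPKM + 0.1). A gene was called differentially expressed (DEG) when its adjusted p was 0.05 or less and its log2 fold change, CCS over AH, at least 1.5 in size. By this rule 1100 genes (6.62% of those tested) were DEGs, 909 (5.47%) higher and 191 (1.15%) lower in CCS fruit. In 1099 of them (6.61% of the genes tested) no CCS library overlapped an AH library. At the adjusted p alone, 23.6% of the genes tested were higher and 13.9% lower, so that 62.9% of such genes were higher, against 52.6% when the libraries were scaled by the median of ratios. Many DEGs passed the filter through 1 group alone. With a CCS library left out and the filter of 3 libraries applied to the 5 left, such genes of CCS fruit could not be tested and 551 to 557 genes rose, and with an AH library left out 139 to 149 fell. In these refiltered fits many list counts were smaller, and the main such moves are given beside the lists. The median log2 fold change of all genes tested was 0.07. With 3 libraries a group, an exact permutation test of a single gene cannot give a two-sided p below 0.1, and the adjusted p values below rest on limma's model. The description column named 899 of the DEGs, and 369 were in one of the 50 gene lists that follow. Summed levels cover all genes of a list or set, also those not tested.

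**Figure D1:**
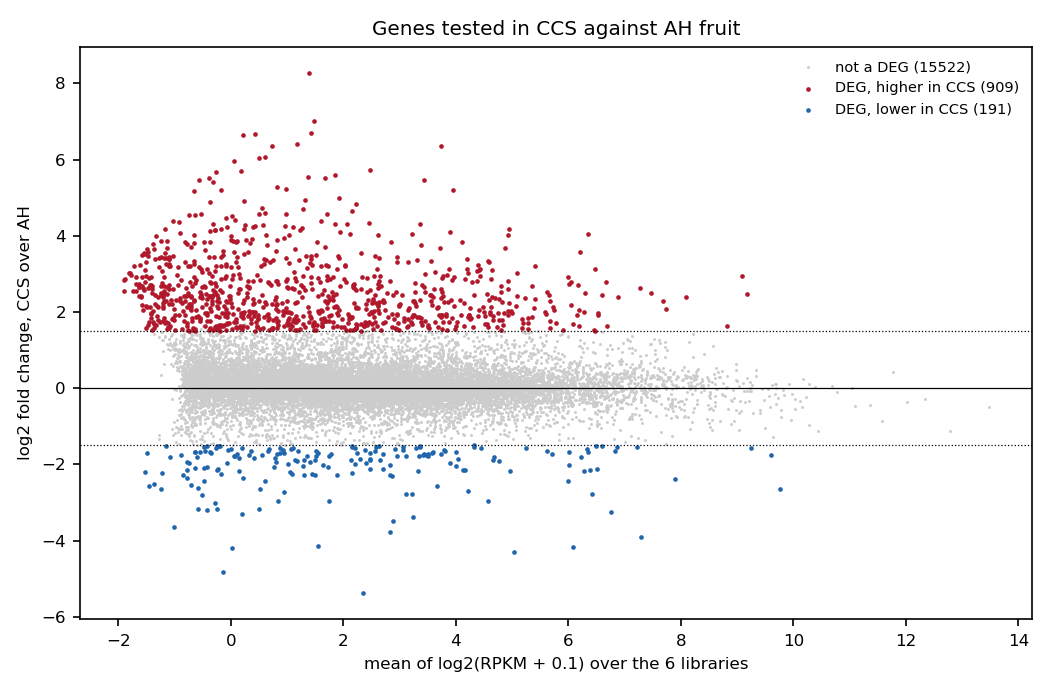
Mean log2 level over the 6 libraries (x axis, log2(RPKM + 0.1)) against the log2 fold change of CCS over AH (y axis) for the 16622 genes tested, with 909 DEGs higher in CCS in red and 191 lower in blue. The dotted lines mark a log2 fold change of 1.5 in either direction, and the red points reach further from 0 than the blue ones.

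Of the 8 described genes that rose most in CCS fruit, all but FvH4_1g02900 were under 0.2 RPKM in every AH library. The first was FvH4_7g22200, of the uncharacterised protein family UPF0497, with 47.6, 45.2 and 46.1 RPKM in the CCS libraries, against 0.0846, 0.0553 and 0.0176 RPKM in the AH libraries (log2 fold change 8.27 ± 0.16 SE, limma adjusted p = 1.2e-06). It had 2 to 10 reads in the AH libraries, so that its transcript was barely detected at harvest. FvH4_5g14810, an EF-hand protein of the calcium-binding kind, had 29.5, 34.4 and 30.5 RPKM in the CCS libraries, against 0.142, 0.146 and 0.148 RPKM in the AH libraries. FvH4_6g13620, with a calcium-dependent lipid-binding domain, had 13.04, 14.1 and 13.4 RPKM in the CCS libraries, against 0.0627, 0 and 0.0465 RPKM in the AH libraries. FvH4_2g40400, described as the calmodulin-like protein CML41, had 11.97, 13.4 and 11.5 RPKM in the CCS libraries, against 0.176, 0.0284 and 0.0813 RPKM in the AH libraries. Their log2 fold changes were 7.005 ± 0.09, 6.67 ± 0.18 and 6.06 ± 0.26 (SE). No AH library had more than 17, 7 and 9 reads of these genes, so the folds depend on the pseudocount of 0.1 RPKM, while the levels in CCS fruit do not. FvH4_1g02900, an early nodulin-like protein of the phytocyanin family, was the most abundant of the 8 that rose most, with 132, 109 and 122 RPKM in the CCS libraries, against 2.03, 1.03 and 1.21 RPKM in the AH libraries (log2 fold change 6.36 ± 0.23 SE, limma adjusted p = 5.5e-06). These genes were picked only among DEGs whose CCS and AH libraries did not overlap. FvH4_1g27450, an AMP-dependent synthetase, had 16.6, 13.3 and 15.6 RPKM in the CCS libraries, against 0.0676, 0.0860 and 0.0996 RPKM in the AH libraries. FvH4_5g32830, a CC-NBS-LRR disease resistance protein, had 10.7, 12.7 and 10.7 RPKM in the CCS libraries, against 0.107, 0.0387 and 0.0831 RPKM in the AH libraries. Its AH libraries held 4 to 8 reads of this gene.

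The 8 described genes that fell most ranged widely in level at harvest, with AH means of 3.59 RPKM for FvH4_3g13900, an HSP20-like chaperone, to 619 RPKM for FvH4_2g31371. The second of these, a small heat shock protein of class II with a mass of 17.6 kDa, had 40.5, 43.2 and 37.6 RPKM in the CCS libraries, against 759, 607 and 492 RPKM in the AH libraries (log2 fold change -3.91 ± 0.16 SE, limma adjusted p = 9.0e-06). FvH4_1g30410, of the family of lipid transfer proteins and 2S albumins, had 33.8, 35.3 and 36.6 RPKM in the CCS libraries, against 413, 306 and 293 RPKM in the AH libraries (log2 fold change -3.24 ± 0.14 SE, limma adjusted p = 1.1e-05). FvH4_3g00570, with an X8 domain that binds carbohydrate, had 0.0978, 0.0959 and 0.0271 RPKM in the CCS libraries, against 5.32, 5.001 and 3.92 RPKM in the AH libraries. FvH4_5g10880, a cytochrome P450 of the CYP78A family, was at 1.81 ± 0.0710 RPKM in CCS fruit and 26.2 ± 1.80 RPKM in AH fruit (SD, n = 3 each, as below). FvH4_3g01740, a subtilisin-like serine protease, was at 0.638 ± 0.270 RPKM in CCS fruit and 12.5 ± 3.06 RPKM in AH fruit. FvH4_2g11650, a bHLH transcription factor, had 1.90, 2.40 and 2.08 RPKM in the CCS libraries, against 23.9, 25.04 and 24.5 RPKM in the AH libraries. The CCS libraries lay below all AH libraries in each of these genes because only DEGs without overlap between the groups were eligible.

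**Figure D2:**
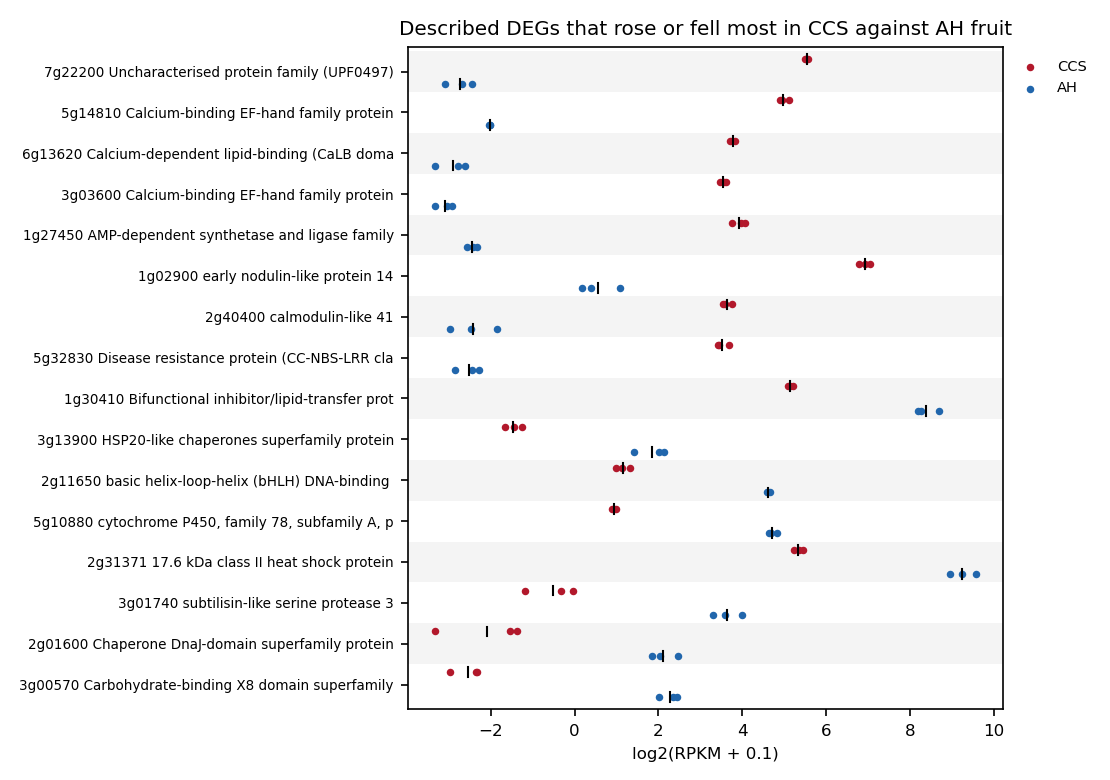
Levels in each CCS (red) and AH (blue) library, as log2(RPKM + 0.1), of the 8 described DEGs that rose most and the 8 that fell most, with gene numbers given without the prefix FvH4_. Each point is a library and each tick the mean of 3. The genes were picked among DEGs whose CCS and AH libraries did not overlap, so the groups are apart by choice.

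Genes that sense or pass on calcium signals were among those that rose in CCS fruit. Of 96 calcium sensors and kinases tested, 21 (21.9%) rose and 0 fell by the DEG rule, and the median log2 fold change was 0.17. The shares of all genes tested were 5.47% and 1.15%. Among the 9 tested calmodulin-like genes, a set chosen after the values were seen, 6 (66.7%) rose. Their summed level was 241 to 262 RPKM in CCS and 105 to 163 RPKM in AH fruit. Receptor-like kinases and leucine-rich repeat proteins, which perceive ligands at the cell surface, had 37 genes (16.2%) that rose and 4 (1.75%) that fell among 228 tested (median 0.26). FvH4_4g23092, described as a somatic embryogenesis receptor-like kinase, had 19.5, 21.4 and 24.00 RPKM in the CCS libraries, against 0.325, 0.384 and 0.401 RPKM in the AH libraries (log2 fold change 5.53 ± 0.11 SE, limma adjusted p = 1.2e-06). In the other direction, FvH4_7g00720, a leucine-rich repeat protein, was at 14.04 ± 0.287 RPKM in CCS fruit and 53.1 ± 4.34 RPKM in AH fruit. In the refiltered fits without 1 CCS library 12 to 13 calcium genes and 11 to 12 of the receptor-like kinase list rose, and with a pseudocount of 1 RPKM 15 and 7. Disease resistance proteins with an NB-ARC domain or the NBS-LRR name, a set also chosen after the values were seen, had 24 that rose and 0 that fell of 142 tested. Those that rose were 16.9%, against 5.47% of all genes. Another 299 of the 441 genes in this set were too low to be tested. How many rose with the filter reapplied or another pseudocount was not tested for it. The summed level of the set was 354 to 379.6 RPKM in CCS and 157 to 262 RPKM in AH fruit.

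Among transcription factors, the WRKY family, known for roles in defense and senescence, had the largest share of DEGs among the factor lists. Of 41 WRKY genes tested, 11 (26.8%) rose and 0 fell, against 5.47% and 1.15% of all genes. The median log2 fold change was 0.65 against 0.07 over all genes. FvH4_2g41070 (WRKY40) had 12.96, 11.3 and 11.9 RPKM in the CCS libraries, against 0.345, 0.138 and 0.216 RPKM in the AH libraries (log2 fold change 5.24 ± 0.22 SE, limma adjusted p = 9.1e-06). FvH4_2g31400 (WRKY50) had 20.9, 18.6 and 16.5 RPKM in the CCS libraries, against 1.60, 0.602 and 0.582 RPKM in the AH libraries. AH replicate 1 was above the other AH libraries yet far below CCS. NAC factors had 7 (14.9%) that rose and 1 (2.13%) that fell of 47 tested, and MYB factors 7 (13.5%) and 0 of 52. The bHLH factors had 2 (3.45%) and 1 (1.72%) of 58, shares near those of all genes. In the refiltered fits without 1 CCS library, 7 to 9 WRKY, 5 NAC and 3 to 4 MYB genes rose, and with a pseudocount of 1 RPKM 7, 4 and 3. The NAC gene that fell passed the filter through AH fruit alone. It could not be tested with any 1 AH library left out and the filter reapplied. When the tested genes were kept, an alternative chosen after seeing the data, it stayed a DEG with any 1 library left out. FvH4_3g11860 (NAC42) was at 7.51 ± 0.366 RPKM in CCS fruit and 0.804 ± 0.380 RPKM in AH fruit. FvH4_4g03610 (MYB14), whose namesake in grapevine controls stilbene synthesis, was at 4.90 ± 0.210 RPKM in CCS fruit and 0.179 ± 0.0457 RPKM in AH fruit. FvH4_1g07170, a MYB-like factor, was at 24.4 ± 0.883 RPKM in CCS fruit and 2.41 ± 0.535 RPKM in AH fruit (log2 fold change 3.31 ± 0.16 SE, limma adjusted p = 1.6e-05). Of 53 zinc finger proteins of the C2H2 and A20/AN1 kinds, 5 (9.43%) rose and 0 fell. FvH4_7g21880 was the most abundant of those named, at 59.8 ± 1.07 RPKM in CCS fruit and 7.90 ± 2.82 RPKM in AH fruit.

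Hormone genes changed in a gene-specific way. In ethylene synthesis, where ACC synthase makes the precursor and ACC oxidase, also called the ethylene-forming enzyme, turns it into ethylene, a gene of each step rose. FvH4_7g15310, ACC synthase 1, had 9.17, 8.58 and 9.07 RPKM in the CCS libraries, against 1.11, 0.576 and 0.545 RPKM in the AH libraries (log2 fold change 3.48 ± 0.24 SE, limma adjusted p = 6.9e-05). FvH4_6g42090, an ethylene-forming enzyme, had 1445, 1329 and 1330.4 RPKM in the CCS libraries, against 276, 244 and 216 RPKM in the AH libraries (log2 fold change 2.48 ± 0.11 SE, limma adjusted p = 1.1e-05). It was among the 8 most abundant DEGs in CCS fruit. The list of ethylene synthesis and ERF factors held 13 genes (20.6%) that rose and 1 (1.59%) that fell of 63 tested, against 5.47% and 1.15% of all genes. With 1 CCS library left out and the filter reapplied 8 to 9 rose, and 6 with a pseudocount of 1 RPKM. The one that fell, FvH4_7g28960 of the ERF-type DNA-binding proteins, was at 7.76 ± 0.328 RPKM in CCS fruit and 32.4 ± 1.95 RPKM in AH fruit.

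In the jasmonate pathway 7 genes (20.6%) rose and 2 (5.88%) fell of 34 tested (median 0.27), against 5.47% and 1.15% of all genes. Allene oxide synthase (AOS), which makes the precursor of jasmonate, went both ways. FvH4_5g16260 was at 5.17 ± 0.823 RPKM in CCS fruit and 0.695 ± 0.344 RPKM in AH fruit, whereas FvH4_2g07423 was at 3.02 ± 0.364 RPKM in CCS fruit and 13.5 ± 1.09 RPKM in AH fruit (log2 fold change -2.13 ± 0.11 SE, limma adjusted p = 2.3e-05). A pair of genes for the oxophytodienoate reductase OPR3, which acts after AOS, rose, of which FvH4_1g08454 was at 15.99, 14.5 and 17.6 RPKM in the CCS libraries, against 1.25, 0.669 and 0.406 RPKM in the AH libraries. The pair has successive identifiers and the same description, and reads may be split between near-identical copies. FvH4_2g39441, jasmonic acid carboxyl methyltransferase, which turns jasmonate into its volatile methyl ester, had 27.9, 27.4 and 31.3 RPKM in the CCS libraries, against 94.05, 96.2 and 94.03 RPKM in the AH libraries (log2 fold change -1.71 ± 0.08 SE, limma adjusted p = 1.6e-05).

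For abscisic acid, 1 gene rose and 2 fell of 68 tested, or 1.47% and 2.94%, against 5.47% and 1.15% of all genes. FvH4_4g18951, a PYR1-like receptor (PYL11), had 20.4, 21.7 and 21.8 RPKM in the CCS libraries, against 1.02, 0.505 and 0.356 RPKM in the AH libraries (log2 fold change 4.99 ± 0.31 SE, limma adjusted p = 4.1e-05). FvH4_3g05440, a nine-cis-epoxycarotenoid dioxygenase of the step that limits abscisic acid synthesis, had 71.00, 60.3 and 61.9 RPKM in the CCS libraries, against 184, 223 and 198 RPKM in the AH libraries (log2 fold change -1.64 ± 0.11 SE, limma adjusted p = 5.7e-05). The genes of gibberellin, cytokinin and brassinosteroid had 3 (13.6%) that rose and 2 (9.09%) that fell of 22. Gibberellin 2-oxidases, which inactivate gibberellins, rose in 2 named genes, of which FvH4_4g36510 was at 10.7 ± 0.192 RPKM in CCS fruit and 3.17 ± 0.442 RPKM in AH fruit. Cytokinin oxidases, which degrade cytokinins, fell in 2 named genes, of which FvH4_2g39230 was at 1.51 ± 0.0985 RPKM in CCS fruit and 6.66 ± 0.178 RPKM in AH fruit. Auxin genes had 4 that rose and 3 that fell of 78 tested (5.13% and 3.85%, against 5.47% and 1.15% of all genes). The share that rose was near that of all genes. In the refiltered fits 2 auxin genes rose with any 1 CCS library left out, and with any 1 AH library left out 0 to 1 auxin gene and 1 abscisic acid gene fell.

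Defense proteins had one of the highest shares of genes that rose. Of 57 tested genes for chitinases, glucanases, thaumatins and pathogenesis-related proteins, 20 (35.1%) rose and 0 fell, with a median log2 fold change of 0.72. The shares of all genes were 5.47% and 1.15%. Their most abundant members were MLP-like and Bet v proteins of the PR-10 kind, which in strawberry fruit include the Fra a allergens. Of 22 such genes tested, a set chosen after the values were seen, 11 (50%) rose and 0 fell. Their summed level was 4632, 4667 and 4717 RPKM in the CCS libraries, against 2774, 2064 and 1911 RPKM in the AH libraries. FvH4_4g19050 had 1492, 1496 and 1525 RPKM in the CCS libraries, against 244, 176 and 172 RPKM in the AH libraries (log2 fold change 2.95 ± 0.14 SE, limma adjusted p = 1.6e-05). FvH4_5g00780 had 334, 327 and 327 RPKM in the CCS libraries, against 27.2, 16.6 and 17.7 RPKM in the AH libraries (log2 fold change 4.04 ± 0.19 SE, limma adjusted p = 1.3e-05). Several of these genes share a description, and reads of near-identical copies may be split between them. Protease inhibitors had 4 (28.6%) that rose and 0 that fell of 14 tested. Among them FvH4_4g02930, a serine protease inhibitor, had 7.33, 7.01 and 6.44 RPKM in the CCS libraries, against 2.33, 0.988 and 0.322 RPKM in the AH libraries, and its AH libraries spread more than those of most genes named here.

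FvH4_6g22790, a polygalacturonase inhibiting protein (PGIP) that restrains the pectin-degrading enzymes of fungi, had 273, 242 and 248 RPKM in the CCS libraries, against 22.1, 21.5 and 20.3 RPKM in the AH libraries (log2 fold change 3.57 ± 0.08 SE, limma adjusted p = 1.7e-06). FvH4_6g22810, with the same description, was at 7.94 ± 0.399 RPKM in CCS fruit and 3.11 ± 0.207 RPKM in AH fruit and did not reach the fold limit.

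Genes of detoxification and of redox metabolism had unlike counts. Glutathione S-transferases, which join glutathione to reactive compounds, had 12 genes (30.8%) that rose and 0 that fell of 39 tested (median 0.23). The shares of all genes were 5.47% and 1.15%. FvH4_7g07360 of the tau class had 16.7, 18.3 and 18.3 RPKM in the CCS libraries, against 1.14, 0.784 and 1.02 RPKM in the AH libraries (log2 fold change 4.06 ± 0.14 SE, limma adjusted p = 4.3e-06). Enzymes that remove reactive oxygen through ascorbate, thioredoxin, catalase or superoxide dismutase had 0 that rose and 1 (0.943%) that fell of 106 tested (median -0.07). At limma's adjusted p alone, 14 (13.2%) were higher and 17 (16%) lower, against 23.6% and 13.9% of all genes. The one that fell, FvH4_2g02730, an atypical thioredoxin, was at 1.59 ± 0.253 RPKM in CCS fruit and 8.06 ± 0.728 RPKM in AH fruit. Class III peroxidases, which act in the cell wall, had 10 (41.7%) that rose and 1 (4.17%) that fell of 24 tested. FvH4_3g02700 had 42.7, 38.7 and 39.5 RPKM in the CCS libraries, against 0.760, 0.621 and 0.622 RPKM in the AH libraries (log2 fold change 5.72 ± 0.10 SE, limma adjusted p = 9.5e-07). Cytochrome P450 genes had 25 (20.3%) that rose and 1 (0.813%) that fell of 123 tested. FvH4_3g11580, of the CYP716A family of triterpenoid oxidases, had 451, 405 and 415 RPKM in the CCS libraries, against 95.96, 67.03 and 64.1 RPKM in the AH libraries. With 1 CCS library left out and the filter reapplied, 5 peroxidases and 16 cytochrome P450 genes rose, and with a pseudocount of 1 RPKM 4 and 15. UDP-glycosyltransferases had 14 (12.8%) that rose and 4 (3.67%) that fell of 109. FvH4_5g23800 (UGT73B3), which fell, was at 39.99 ± 2.04 RPKM in CCS fruit and 141 ± 12.95 RPKM in AH fruit.

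**Figure D3:**
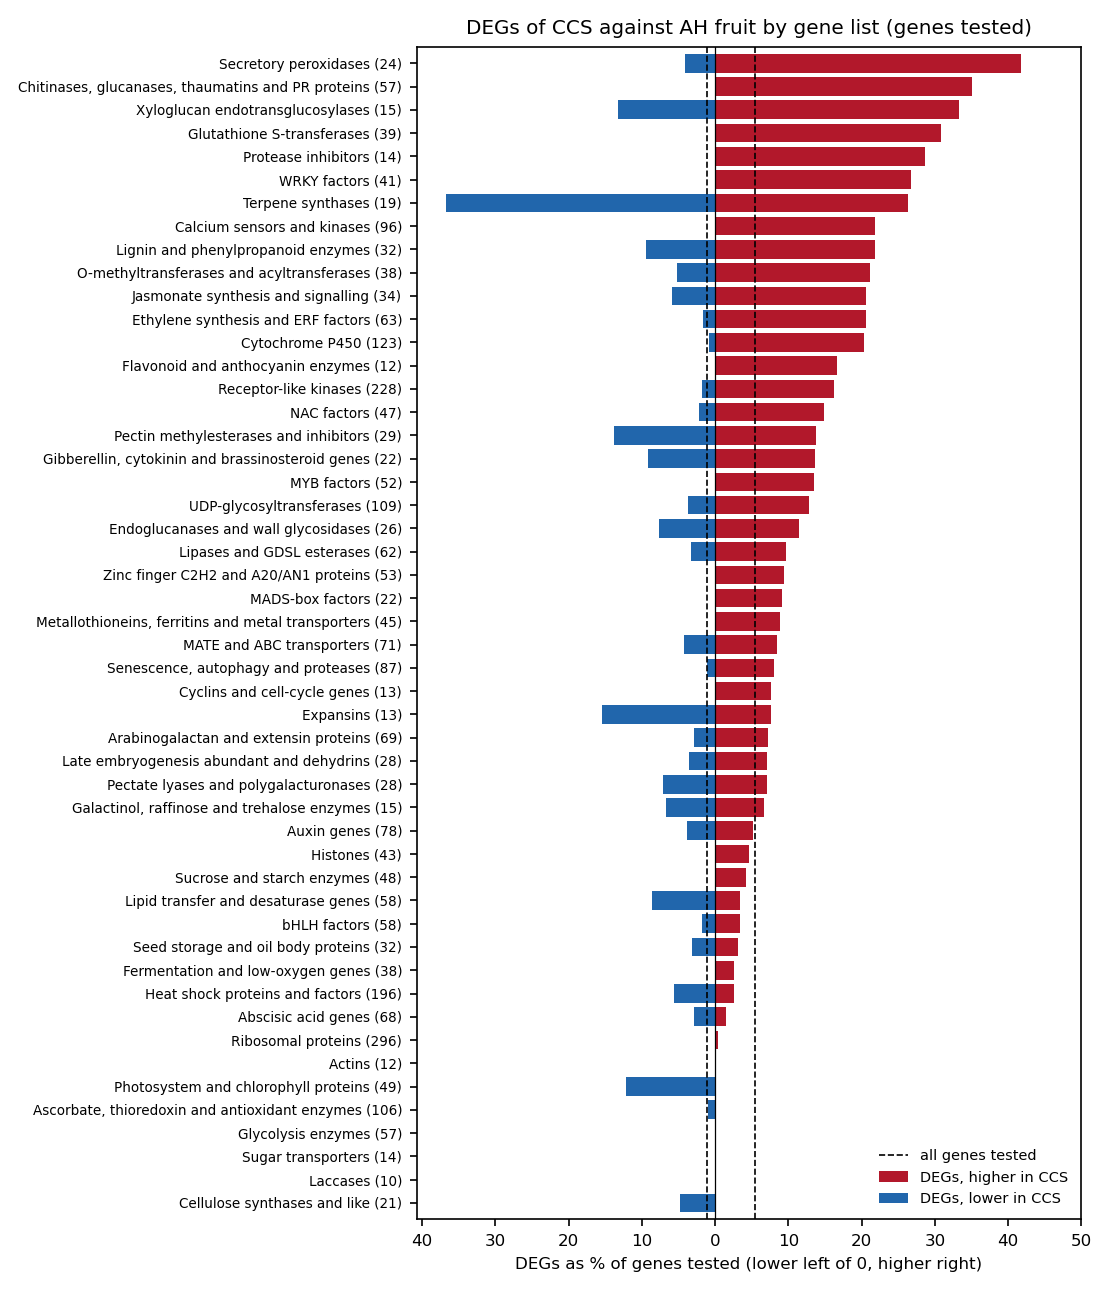
Share of the tested genes of each gene list that were DEGs in CCS against AH fruit, in percent, with genes higher in CCS to the right (red) and lower to the left (blue) and the number tested in brackets. The dashed lines mark 5.47% higher and 1.15% lower over all 16622 genes tested, and peroxidases, defense proteins and glutathione S-transferases lie far to the right of them.

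Cell wall genes went in both directions, with different members of the same family rising and falling. XTH, which cut and rejoin xyloglucan, had 5 genes (33.3%) that rose and 2 (13.3%) that fell of 15 tested, against 5.47% and 1.15% of all genes. With the filter reapplied, 2 XTH rose with any 1 CCS library left out and 1 fell with any 1 AH library left out, and 3 rose and 1 fell with a pseudocount of 1 RPKM or with at least 10 reads asked of every library. FvH4_6g38160 (XTH16) had 19.6, 16.5 and 16.8 RPKM in the CCS libraries, against 0.141, 0.352 and 0.395 RPKM in the AH libraries (log2 fold change 5.55 ± 0.27 SE, limma adjusted p = 1.6e-05). FvH4_5g23180 (XTH30) was at 44.9 ± 2.51 RPKM in CCS fruit and 11.2 ± 0.718 RPKM in AH fruit. FvH4_1g18550 (XTH6), which fell, had 3.33, 3.49 and 3.53 RPKM in the CCS libraries, against 23.3, 26.5 and 22.9 RPKM in the AH libraries (log2 fold change -2.77 ± 0.09 SE, limma adjusted p = 3.5e-06). The other XTH that fell, FvH4_4g12960, is also described as XTH16, so the genes of that description went both ways. It was at 0.0637 ± 0.0280 RPKM in CCS fruit and 0.642 ± 0.0343 RPKM in AH fruit (log2 fold change -2.19 ± 0.14 SE, limma adjusted p = 4.8e-05). FvH4_4g27500, alpha-xylosidase 1, which trims xylose from xyloglucan, was at 1.10 ± 0.0848 RPKM in CCS fruit and 9.27 ± 1.45 RPKM in AH fruit.

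Expansins, which loosen the wall without cutting it, had 1 that rose and 2 that fell of 13 tested. Those were 7.69% and 15.4%, against 5.47% and 1.15% of all genes. FvH4_3g40360 (EXPA8) had 38.6, 39.7 and 40.2 RPKM in the CCS libraries, against 189, 177 and 159 RPKM in the AH libraries (log2 fold change -2.14 ± 0.09 SE, limma adjusted p = 9.5e-06). FvH4_6g13610, one of the genes described as expansin A4, was at 4.64 ± 0.161 RPKM in CCS fruit and 14.6 ± 1.25 RPKM in AH fruit. FvH4_5g21120, expansin-like B1, was higher, at 36.5 ± 2.77 RPKM in CCS fruit and 10.1 ± 2.12 RPKM in AH fruit (log2 fold change 1.85 ± 0.16 SE, limma adjusted p = 1.7e-04). The other gene described as expansin A4, FvH4_3g36410, had 8.37, 8.47 and 7.57 RPKM in the CCS libraries, against 4.19, 4.18 and 3.68 RPKM in the AH libraries, a log2 fold change of 1.00 ± 0.09 SE that was under the fold limit. FvH4_7g25860, the most abundant expansin and named after its values were seen, was at 1928, 1771 and 1879 RPKM in the CCS libraries, against 2760, 2658 and 2343 RPKM in the AH libraries.

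Among the 29 tested pectin methylesterases and their inhibitors, which the descriptions do not keep apart, 4 (13.8%) rose and 4 (13.8%) fell, and the median was -0.49. FvH4_6g35830 had 45.3, 41.8 and 44.7 RPKM in the CCS libraries, against 193, 198 and 179 RPKM in the AH libraries (log2 fold change -2.11 ± 0.08 SE, limma adjusted p = 6.6e-06). FvH4_7g27830 was at 8.43 ± 0.423 RPKM in CCS fruit and 37.9 ± 3.66 RPKM in AH fruit. In the other direction, FvH4_2g25960 had 62.4, 55.3 and 60.7 RPKM in the CCS libraries, against 15.1, 16.8 and 14.9 RPKM in the AH libraries (log2 fold change 1.93 ± 0.09 SE, limma adjusted p = 1.4e-05). In the list of pectate lyases and polygalacturonases, whose words also take in their inhibitors, 2 rose and 2 fell of 28. Those were 7.14% in each direction, against 5.47% and 1.15% of all genes. One of the 2 that rose is the PGIP gene given above. In the refiltered fits without 1 CCS library, 2 pectin methylesterase or inhibitor genes rose. With a pseudocount of 1 RPKM that list had 1 that rose and 2 that fell, and the list of pectate lyases and polygalacturonases 1 and 1. FvH4_7g15040, of the pectin lyase-like family, had 32.3, 31.6 and 31.98 RPKM in the CCS libraries, against 139, 129.8 and 118 RPKM in the AH libraries (log2 fold change -2.01 ± 0.09 SE, limma adjusted p = 1.0e-05).

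Of 26 endoglucanases and wall glycosidases, 3 (11.5%) rose and 2 (7.69%) fell, against 5.47% and 1.15% of all genes. With any 1 CCS library left out and the filter reapplied, 1 rose. Those that fell were alpha-xylosidase 1 and FvH4_4g19350, beta-xylosidase 1, at 7.84 ± 0.445 RPKM in CCS fruit and 25.01 ± 3.36 RPKM in AH fruit. FvH4_6g06300, a Barwin-related endoglucanase, was at 8.65 ± 0.703 RPKM in CCS fruit and 0.742 ± 0.174 RPKM in AH fruit. Among 21 cellulose synthases and like proteins 0 rose and 1 (4.76%) fell. It was FvH4_3g29980 of the mannan-making CslA type (CslA02), at 2.19 ± 0.244 RPKM in CCS fruit and 8.48 ± 1.94 RPKM in AH fruit. Without the fold limit more genes are called by construction. By limma's adjusted p alone, 4 endoglucanases and glycosidases (15.4%) were higher and 15 (57.7%) lower. Of the cellulose synthases 3 (14.3%) were higher and 5 (23.8%) lower, and of all genes tested 23.6% and 13.9%. Laccases, which act in lignin polymerization, had 0 DEGs of 10 tested, with 1 higher and 3 lower at the adjusted p. The one that was higher, FvH4_1g24380, had 20.3, 19.4 and 17.9 RPKM in the CCS libraries, against 6.85, 6.72 and 6.63 RPKM in the AH libraries and lay at the fold limit (log2 fold change 1.498 ± 0.08 SE, limma adjusted p = 2.3e-05).

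**Figure D4:**
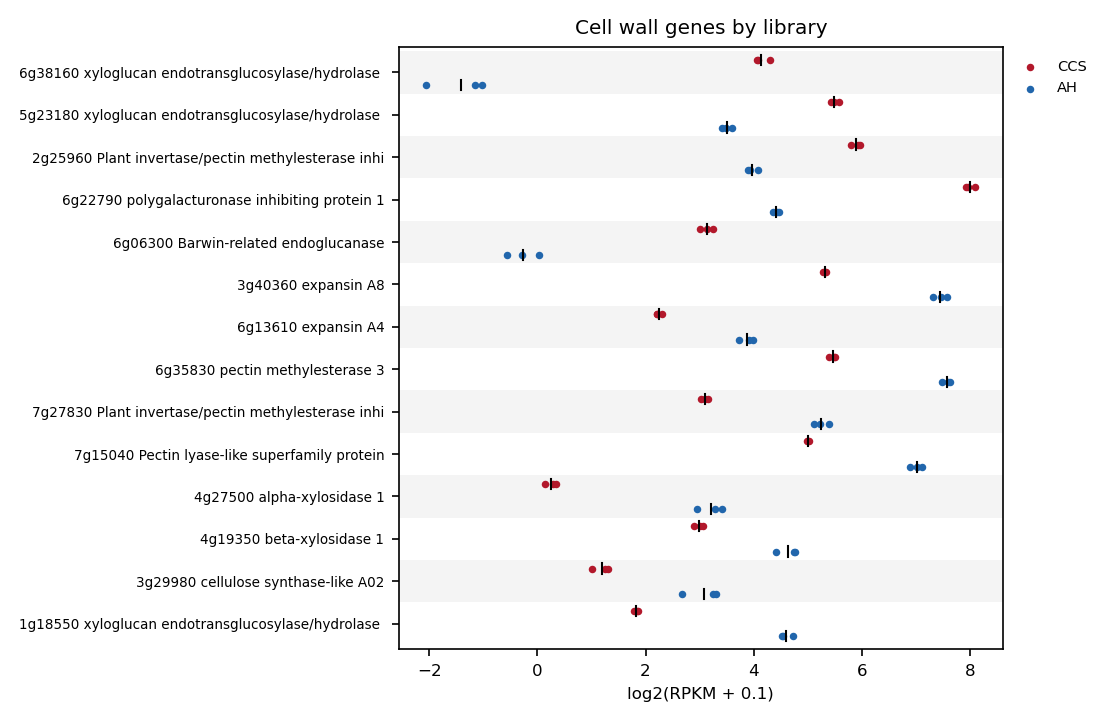
Levels in each CCS (red) and AH (blue) library, as log2(RPKM + 0.1), of 14 named cell wall genes, with gene numbers given without the prefix FvH4_. Points are libraries and ticks the means of 3, and the genes at the top are higher and those at the bottom lower in CCS. The groups do not overlap, and most of these genes were picked by a rule that asked for this.

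Phenylpropanoid metabolism feeds lignin and flavonoids. Lignin and phenylpropanoid enzymes had 7 that rose and 3 that fell of 32 tested (21.9% and 9.38%, against 5.47% and 1.15% of all genes), with a median of 0.45. With a pseudocount of 1 RPKM 3 rose and 0 fell, and without AH replicate 3, with the filter reapplied, 1 fell. FvH4_1g12210, ferulic acid 5-hydroxylase, which directs precursors to syringyl lignin, had 26.9, 23.8 and 24.6 RPKM in the CCS libraries, against 0.696, 0.732 and 0.914 RPKM in the AH libraries (log2 fold change 4.84 ± 0.12 SE, limma adjusted p = 1.7e-06). FvH4_3g44751, a dirigent-like protein, was at 4.78 ± 0.105 RPKM in CCS fruit and 0.129 ± 0.0238 RPKM in AH fruit. Of 12 flavonoid and anthocyanin genes, 2 (16.7%) rose and 0 fell. FvH4_2g28040, of the chalcone and stilbene synthase family, was at 2.47 ± 0.218 RPKM in CCS fruit and 0.0601 ± 0.0396 RPKM in AH fruit. FvH4_2g26440, flavonol synthase, was at 1.499 ± 0.106 RPKM in CCS fruit and 0.461 ± 0.0683 RPKM in AH fruit, just past the fold limit (log2 fold change 1.52 ± 0.11 SE, limma adjusted p = 1.0e-04), and without CCS replicate 2, CCS replicate 3 or AH replicate 2 it was just under it. The summed level of the 18 genes of the flavonoid list was 4902, 4907 and 4879 RPKM in the CCS libraries, against 4912, 4173 and 3755 RPKM in the AH libraries, so the groups overlapped. Terpene synthases had 5 (26.3%) that rose and 7 (36.8%) that fell of 19 tested, the largest share of genes that fell in any list, and a median of -0.79. Their count of genes that rose was 1 with any 1 CCS library left out and the filter reapplied, and 1 with a pseudocount of 1 RPKM. The count that fell also depends on the filter. FvH4_6g36450, one of those that fell, was at 0.317 ± 0.0958 RPKM in CCS fruit and 1.68 ± 0.0355 RPKM in AH fruit. It passed the filter through AH fruit alone, and could not be tested with 1 AH library left out and the filter reapplied. FvH4_3g03045 (TPS14), which fell, was at 2.59 ± 0.326 RPKM in CCS fruit and 10.4 ± 1.33 RPKM in AH fruit. FvH4_5g35712 (TPS21), which rose, was at 2.09 ± 0.378 RPKM in CCS fruit and 0.0507 ± 0.00625 RPKM in AH fruit.

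The study designed qPCR primers for several of these genes, and those for the XTH30, pectin methylesterase, ferulic acid 5-hydroxylase and jasmonic acid carboxyl methyltransferase genes are shown because they identify the transcripts of the wall, lignin and jasmonate results, 5′ to 3′:
FvH4_5g23180 forward: gaagcttgcctacctcaacg
FvH4_5g23180 reverse: tcttgaaccgtgccttctct
FvH4_2g25960 forward: aagcaaatcgcgaaaggtttat
FvH4_2g25960 reverse: gcggcagagttattcggagt
FvH4_1g12210 forward: gatgcagctagggctttacg
FvH4_1g12210 reverse: ggcacacgacccttttagtc
FvH4_2g39441 forward: tgcgtactcacttcaattccac
FvH4_2g39441 reverse: aaccatgctcatcaatgcaa

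Several small heat shock proteins, chaperones that hold unfolded proteins, fell in CCS fruit, while some other heat shock genes rose. Of 196 tested heat shock proteins and factors, 5 rose and 11 fell (median -0.02). Those were 2.55% and 5.61%, against 5.47% and 1.15% of all genes, so fewer rose than among all genes. Of those that fell, 10 were among the 36 tested small heat shock or HSP20-like proteins, a set chosen after the values were seen. At limma's adjusted p alone, 1 of these 36 (2.78%) was higher and 15 (41.7%) were lower, against 23.6% and 13.9% of all genes. Their summed level was 921, 881 and 579 RPKM in the CCS libraries, against 2146, 1830.4 and 1621 RPKM in the AH libraries. CCS replicate 3, low in achene transcripts, was also the lowest here. Without it and with the tested genes kept, an alternative chosen after seeing the data, 5 heat shock genes rose and 10 fell. With any 1 AH library left out, 10 to 11 fell when the tested genes were kept and 6 to 7 when the filter was reapplied. FvH4_2g31371 stood at 40.5 and 43.2 RPKM in CCS replicates 1 and 2. In contrast FvH4_6g41130, an HSP70, had 8.01, 7.15 and 6.84 RPKM in the CCS libraries, against 0.795, 0.943 and 0.907 RPKM in the AH libraries (log2 fold change 2.92 ± 0.10 SE, limma adjusted p = 4.7e-06). FvH4_6g24120, heat shock factor B3, was at 17.7 ± 0.858 RPKM in CCS fruit and 1.97 ± 0.449 RPKM in AH fruit. FvH4_7g15690, a BAG6 cochaperone, was at 87.9 ± 9.53 RPKM in CCS fruit and 256 ± 31.1 RPKM in AH fruit. Its log2 fold change was -1.54 ± 0.13 SE, and -1.45, under the fold limit, without CCS replicate 3 or without AH replicate 3.

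Late embryogenesis abundant proteins and dehydrins, which protect cells in drying or cold, had 2 that rose and 1 that fell of 28 tested (median -0.34). Those were 7.14% and 3.57%, against 5.47% and 1.15% of all genes. Both that rose were low in AH fruit, and 0 rose with any 1 CCS library left out and the filter reapplied, against 2 when the tested genes were kept, an alternative chosen after seeing the data. FvH4_7g15460 had 102, 116 and 97.7 RPKM in the CCS libraries, against 621, 517 and 508 RPKM in the AH libraries (log2 fold change -2.38 ± 0.11 SE, limma adjusted p = 1.5e-05). FvH4_3g08950 had 3.76, 4.36 and 3.61 RPKM in the CCS libraries, against 0.169, 0.221 and 0.159 RPKM in the AH libraries (log2 fold change 3.83 ± 0.12 SE, limma adjusted p = 3.4e-06). The summed level of the list was 3719.8, 3533 and 2152 RPKM in the CCS libraries, against 5944, 5234 and 5615 RPKM in the AH libraries, and CCS replicate 3 was again the lowest. Among the enzymes of galactinol, raffinose and trehalose, sugars tied to cold tolerance, 1 rose and 1 fell of 15, and both are described as galactinol synthase 2. Each was 6.67% of those tested, and of all genes 5.47% rose and 1.15% fell. FvH4_4g20790 was at 1.19 ± 0.0664 RPKM in CCS fruit and 0.352 ± 0.0474 RPKM in AH fruit, close to the fold limit. FvH4_6g07930 was at 2.49 ± 0.364 RPKM in CCS fruit and 9.43 ± 2.24 RPKM in AH fruit.

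Genes of primary carbon metabolism had few DEGs. Glycolysis enzymes had 0 DEGs of 57 tested and sugar transporters 0 of 14. At the adjusted p of limma, 8 glycolysis enzymes (14%) were higher and 17 (29.8%) lower. Of the sugar transporters 5 (35.7%) were higher and 3 (21.4%) lower, against 23.6% and 13.9% of all genes. Of 38 tested genes for fermentation and low oxygen, which include pyruvate decarboxylase and alcohol dehydrogenases, 1 (2.63%) rose and 0 fell. It was FvH4_1g05100, aldehyde dehydrogenase 2C4, which in Arabidopsis takes part in sinapate and ferulate synthesis. It had 33.6, 29.6 and 31.7 RPKM in the CCS libraries, against 4.11, 2.58 and 2.48 RPKM in the AH libraries (log2 fold change 3.37 ± 0.19 SE, limma adjusted p = 3.2e-05). Sucrose and starch enzymes had 2 that rose and 0 that fell of 48, or 4.17% that rose against 5.47% of all genes. The 2 that rose break down starch. FvH4_5g20800, a chloroplast beta-amylase, was at 12.9 ± 0.321 RPKM in CCS fruit and 2.44 ± 0.209 RPKM in AH fruit. FvH4_2g06030, an alpha-amylase-like gene, was at 11.1 ± 0.549 RPKM in CCS fruit and 2.96 ± 0.336 RPKM in AH fruit.

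Some photosynthesis genes, low in all libraries, fell, whereas most changes of histones and ribosomal proteins were under the fold limit. Photosystem and chlorophyll genes had 0 that rose and 6 (12.2%) that fell of 49 tested, and a median of -0.50. At the adjusted p 0 were higher and 25 (51%) lower. The shares of all genes were 5.47% higher and 1.15% lower by the DEG rule, and 23.6% and 13.9% at the adjusted p. FvH4_3g02920, photosystem II subunit Q-2, was at 0.572 ± 0.174 RPKM in CCS fruit and 3.46 ± 0.624 RPKM in AH fruit. Of 43 histone genes 2 (4.65%) rose and 0 fell, yet 30 (69.8%) were higher and 0 lower at the adjusted p, and the median log2 fold change was 0.94. FvH4_5g38881 had 45.6, 44.1 and 42.8 RPKM in the CCS libraries, against 14.9, 10.7 and 9.98 RPKM in the AH libraries. The summed level of histones was 4778, 4768 and 4530.3 RPKM in the CCS libraries, against 3571, 2528 and 2296 RPKM in the AH libraries, with AH replicate 1 the highest at harvest. With the tested genes kept, 8 histone genes rose by the DEG rule without that library, 1 without AH replicate 3 and 2 without any other 1 library. Cyclins and other cell-cycle genes, the other markers of dividing cells, had 1 (7.69%) that rose and 0 that fell of 13. Their summed level was 155 to 159 RPKM in CCS and 146 to 170 RPKM in AH fruit. Ribosomal proteins had 58 genes higher and 14 lower at the adjusted p of 296 tested, with 1 DEG. Those are 19.6% and 4.73% of the list, below the 23.6% and 13.9% of all genes tested. The median log2 fold change of the list was 0.26, against 0.07 over all genes. Log2 fold changes were above 0 in 242 of the 296, and in 9708 of all 16622 genes tested.

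Where a list had 0 DEGs in a direction, limma at an unadjusted p under 0.05 and the DEG rule with voom gave the following. Of all 16622 genes tested, 4753 were higher and 2898 lower at that unadjusted p, and voom called 959 and 239. The counts below are out of the numbers tested given with each list, and a count alone does not show that a list changed. For genes lower in CCS fruit, the unadjusted counts were 15 calcium sensors and kinases, 5 WRKY, 4 MYB and 9 zinc finger genes, and voom called 1 calcium gene, 1 WRKY gene and 0 of the others. They were 12 defense proteins, 2 protease inhibitors, 7 glutathione S-transferases, 2 flavonoid genes, 10 sucrose and starch enzymes, 12 fermentation genes, 0 histones and 1 cyclin, with 0 by voom in each. They were 2 NB-ARC and NBS-LRR genes, 1 MLP-like or Bet v gene and 0 calmodulin-like genes in the sets chosen after the values were seen, with 0 by voom. For genes higher in CCS fruit, they were 18 ascorbate, thioredoxin and antioxidant enzymes, 1 photosystem or chlorophyll gene and 2 small heat shock genes, with 0 by voom, and 5 cellulose synthases, with 1 by voom. Laccases had 1 higher and 4 lower, sugar transporters 5 and 3 and glycolysis enzymes 12 and 22, with 0 by voom in either direction. Ribosomal proteins had 106 higher and 20 lower.

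Of 58 tested lipid transfer and desaturase genes, 2 rose and 5 fell (median -0.23). Those were 3.45% and 8.62%, against 5.47% and 1.15% of all genes. FvH4_7g26430, of the lipid transfer family, had 114, 117 and 122 RPKM in the CCS libraries, against 25.8, 19.6 and 19.2 RPKM in the AH libraries (log2 fold change 2.46 ± 0.13 SE, limma adjusted p = 2.1e-05). Of the lipases, FvH4_3g38460, a non-specific phospholipase C, which splits membrane lipids, had 199, 169.9 and 186 RPKM in the CCS libraries, against 25.5, 29.6 and 28.7 RPKM in the AH libraries (log2 fold change 2.72 ± 0.10 SE, limma adjusted p = 5.5e-06). MATE and ABC transporters had 6 that rose and 3 that fell of 71 (8.45% and 4.23%, against 5.47% and 1.15% of all genes). With any 1 AH library left out and the filter reapplied 0 fell. FvH4_7g01040, a MATE efflux protein, was at 75.9 ± 3.80 RPKM in CCS fruit and 7.60 ± 1.55 RPKM in AH fruit. Genes of senescence, autophagy and proteolysis had 7 that rose and 1 that fell of 87, or 8.05% and 1.15%, close to the 5.47% and 1.15% of all genes.

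Among the most abundant DEGs at harvest, FvH4_2g38480, a GAST1 homolog of the gibberellin-regulated cysteine-rich peptides, had 357, 455 and 470.4 RPKM in the CCS libraries, against 1633, 1355 and 1312 RPKM in the AH libraries (log2 fold change -1.75 ± 0.14 SE, limma adjusted p = 1.4e-04). FvH4_3g14710, SKP1-like 3, a part of SCF ubiquitin ligases, had 361, 342 and 357 RPKM in the CCS libraries, against 1268, 1023 and 908 RPKM in the AH libraries (log2 fold change -1.58 ± 0.13 SE, limma adjusted p = 1.6e-04). Without AH replicate 1 its log2 fold change was -1.45. Among the most abundant DEGs in CCS fruit, FvH4_4g32420, a hydroxyproline-rich glycoprotein, had 877, 736 and 796 RPKM in the CCS libraries, against 277, 261 and 234 RPKM in the AH libraries (log2 fold change 1.64 ± 0.11 SE, limma adjusted p = 5.1e-05). FvH4_5g38050, a 2-oxoglutarate and Fe(II)-dependent oxygenase, had 393, 361 and 397 RPKM in the CCS libraries, against 61.6, 62.3 and 61.1 RPKM in the AH libraries (log2 fold change 2.63 ± 0.08 SE, limma adjusted p = 2.9e-06).

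The levels in ACS and NCS fruit show which of these values were shared with storage without CO2. The direct differences below are log2 fold changes from limma fits of CCS against ACS or NCS fruit, which use the same CCS libraries. Against ACS, 18.4% of the genes tested were higher and 10.3% lower in CCS fruit at an adjusted p of 0.05, and against NCS 37.6% were higher and 14% lower. Several genes that rose most had high levels in CCS and ACS fruit and low levels in NCS fruit. FvH4_5g14810 was at 31.5 ± 2.60 RPKM in CCS, 37.3 ± 4.53 RPKM in ACS, 0.519 ± 0.0880 RPKM in NCS and 0.145 ± 0.00294 RPKM in AH fruit, and the log2 fold change of CCS over ACS was -0.24 ± 0.11 SE, adjusted p = 0.14 (limma). WRKY40 was at 12.1 ± 0.829 RPKM in CCS, 12.9 ± 1.11 RPKM in ACS and 0.277 ± 0.0981 RPKM in NCS fruit, and its log2 fold change of CCS over NCS was 5.05 ± 0.19 SE, adjusted p = 7.3e-06 (limma). A p that misses the threshold does not show that CCS and ACS fruit were alike.

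Some other genes that rose against AH, also chosen after their values were seen, were lower in CCS than in ACS and NCS fruit. Ferulic acid 5-hydroxylase was at 25.1 ± 1.61 RPKM in CCS, 50.01 ± 1.99 RPKM in ACS and 41.5 ± 1.82 RPKM in NCS fruit (CCS over ACS -0.99 ± 0.06 SE, adjusted p = 4.6e-04, limma). ACC synthase 1 was at 8.94 ± 0.317 RPKM in CCS, 23.9 ± 0.283 RPKM in ACS and 24.5 ± 0.454 RPKM in NCS fruit (CCS over ACS -1.41 ± 0.05 SE, adjusted p = 1.2e-04, limma). PGIP FvH4_6g22790 was at 254 ± 16.5 RPKM in CCS, 397 ± 8.71 RPKM in ACS and 349.7 ± 14.98 RPKM in NCS fruit (CCS over ACS -0.64 ± 0.06 SE, adjusted p = 0.0014, limma). These genes kept a level between that of AH fruit and those of the fruit stored without CO2.

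The genes that follow were chosen after their values were seen, as examples with CCS fruit above or below all other groups. FvH4_3g08950, the late embryogenesis abundant gene, was at 3.91 ± 0.394 RPKM in CCS, 0.748 ± 0.256 RPKM in ACS and 0.0564 ± 0.0606 RPKM in NCS fruit (CCS over ACS 2.28 ± 0.21 SE, adjusted p = 0.0012, limma). The bHLH factor FvH4_2g11650, which fell, was at 2.13 ± 0.253 RPKM in CCS, 15.2 ± 0.131 RPKM in ACS and 10.5 ± 0.304 RPKM in NCS fruit (CCS over ACS -2.78 ± 0.09 SE, adjusted p = 1.2e-04, limma). Jasmonic acid carboxyl methyltransferase was at 28.9 ± 2.13 RPKM in CCS, 81.4 ± 8.08 RPKM in ACS and 329 ± 9.96 RPKM in NCS fruit (CCS over ACS -1.49 ± 0.09 SE, adjusted p = 4.3e-04, limma). Histone gene FvH4_5g38881 was at 44.1 ± 1.40 RPKM in CCS, 19.5 ± 1.33 RPKM in ACS and 9.89 ± 0.681 RPKM in NCS fruit (CCS over ACS 1.18 ± 0.07 SE, adjusted p = 3.7e-04, limma). CCS and ACS fruit each came from 1 container, so the gas and the container cannot be told apart.

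**Figure D5:**
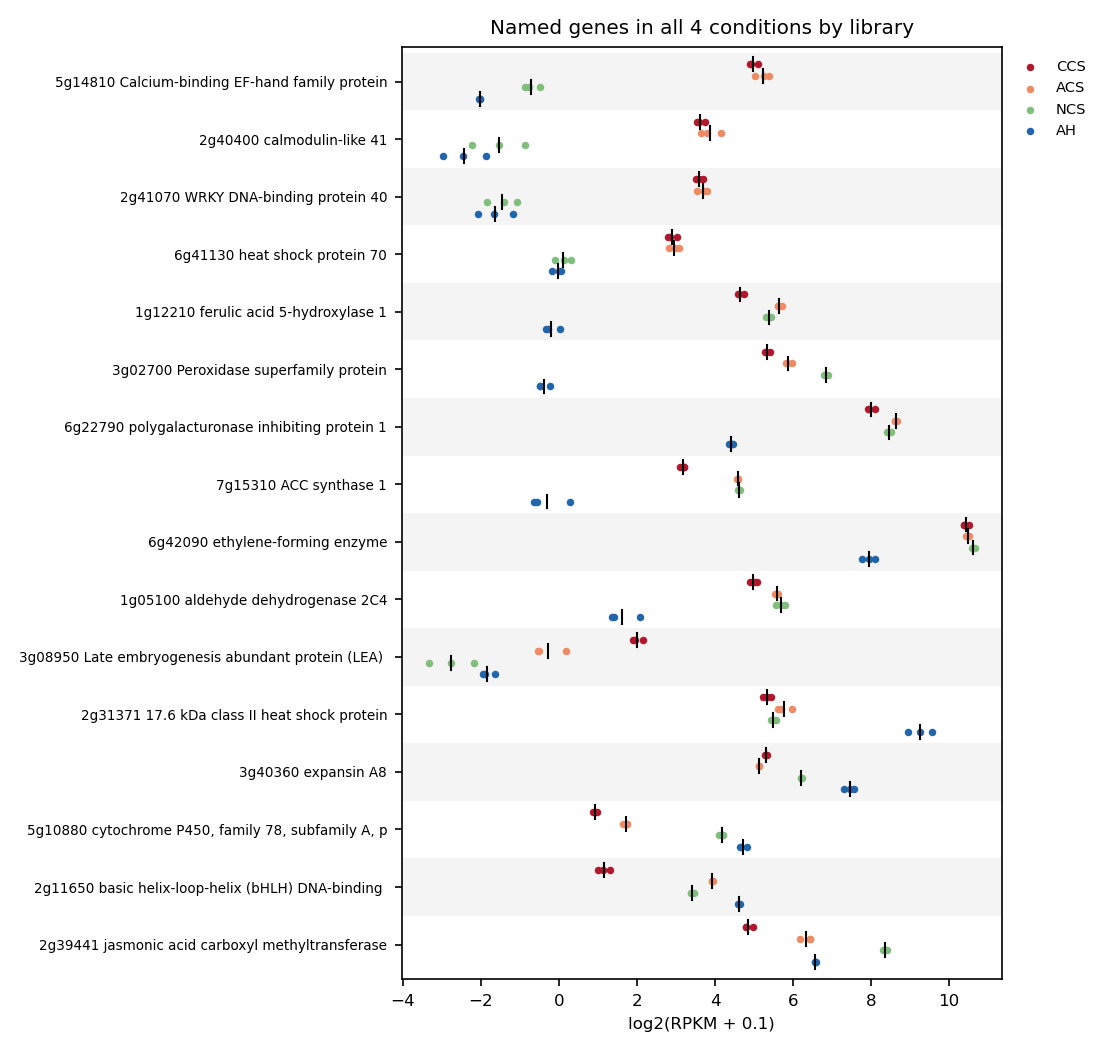
Levels in each library, as log2(RPKM + 0.1), of 16 named genes in CCS, ACS, NCS and AH fruit, with gene numbers given without the prefix FvH4_. Points are libraries and ticks the means of 3, and the EF-hand, calmodulin-like, WRKY40 and HSP70 genes are high in CCS and ACS and low in NCS and AH fruit.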

How the data were processed

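Total RNA of 'Mara des Bois' fruit had been prepared with a stranded total RNA kit and sequenced in paired-end mode. The authors trimmed adapters with Cutadapt 1.16.6, aligned reads with HISAT2 2.1.0 to the *F. vesca* genome and counted them over exons in SeqMonk without regard to strand. Reads of a gene and of one that overlaps it on the other strand are therefore not kept apart. The deposited RPKM values cover 34008 genes of 12 libraries with no filter and no pooling. The deposited table also holds the authors' log2 fold changes, which were not used. Whole reads were recovered from the steps of the RPKM values, which gave the depth of each library.

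The 3 CCS and 3 AH libraries were fitted with limma 3.58.1 in R 4.3.3 on log2(RPKM + 0.1). Genes below 0.5 RPKM in more than 3 of the 6 libraries were left out. The fit was made without a trend and with Benjamini-Hochberg adjustment. Fold changes are on this scale, which understates the change of low genes. The fit was tested on simulated data. Gene lists were taken by words of the deposited descriptions and described by counts and medians, with no set test. Named genes were the 8 described DEGs that rose most and the 8 that fell most, up to 2 in each direction in each list, the 8 most abundant in each group, genes the study names and its reference actin. Those ranked by change, over all genes or in a list, were taken only among DEGs whose CCS and AH libraries did not overlap. The members, lists and rules were chosen with earlier results of these data known, and patterns were corrected only for spelling. Alternatives were another pseudocount, other filters, median-of-ratios scaling, voom on recovered reads with trimmed-mean factors, an intensity trend, all 12 libraries, a replicate block and each library left out. Leaving out libraries with the tested genes kept was added after seeing the data. No genome or annotation of the build was used here, so coordinates are not given.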

Additional observations from a re-analysis of the deposited data

How the results depend on the processing

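The 1100 DEGs (909 higher, 191 lower) became 557 (465 higher, 92 lower) with a pseudocount of 1 RPKM, which shrinks the fold changes of low genes by construction. The other settings gave 959 to 1274 DEGs with more genes higher than lower in each: no filter 1274, at least 10 reads in every library 959, median-of-ratios scaling 1073, voom 1198, a trend 1101 and all 12 libraries 1102. Leaving out 1 library and applying the filter to the 5 left gave 739 to 1078 DEGs, 551 to 939 higher and 139 to 202 lower. The lowest counts of higher genes came without CCS replicate 1, 2 or 3 (551, 557 and 555), where the filter still asks for 3 libraries and a gene present in CCS alone cannot pass. With the tested genes kept, an alternative chosen after seeing the data, the counts were 1094 to 1128 DEGs, 907 to 939 higher and 184 to 204 lower. Of the 100 counts of the 50 lists in both directions, 48 moved by over 1.5 times with a pseudocount of 1 RPKM, 22 to 25 without a CCS library and 12 to 17 without an AH library with the filter reapplied, and 0 to 9 in the other settings. With the tested genes kept there were 8 histone DEGs without AH replicate 1 and 1 without AH replicate 3, against 2 in the main fit.

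The replicate numbers were not found to pair the samples: deviations of same-numbered libraries correlated at 0.081, -0.259 and -0.174. A fit with the replicate block gave 1101 DEGs (910 higher, 191 lower) and changed no call of a named gene. Of 163 named genes that were tested, 47 lost the DEG call with a pseudocount of 1 RPKM, 4 with median-of-ratios scaling and 0 with voom. No named gene that was a DEG in the main fit or in the setting changed sign in any of these settings. Sign changes of named genes that were not DEGs were not counted. Named genes near the fold limit lost the call without 1 library, such as FvH4_4g20790 without CCS replicate 1 (log2 fold change 1.49). The depth is high for all libraries, and the number of libraries, 3 a group, limits the precision.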
